A study of Canis lupus familiaris with 222 samples.

Results

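The 50 most abundant transcripts of canine mammary tumors (CMTs) were described across tumors, adjacent normal mammary tissue, histology groups and expression clusters. Identifiers were ranked by their median FPKM (a level per length of transcript, relative to all fragments mapped in that library) over 113 malignant and 44 benign tumors, with ENSCAFG00000028626 and ENSCAFG00000023647 left out of the ranking. The members are the first 50 of 24580 identifiers. Bulk polyadenylated RNA was sequenced from surgical tissue of female dogs aged 2 to 19 years (age missing for 7 libraries), and the labels name no treatment. The tumors comprised 59 simple carcinomas, 33 complex carcinomas, 13 carcinomas in benign mixed tumors, 18 simple adenomas, 16 complex adenomas, 10 benign mixed tumors and 8 of other histology (osteosarcoma, carcinosarcoma, fibrosarcoma and spindle cell carcinoma). Normal tissue came from 64 of the same dogs. Each library of a tissue is from a separate dog, with neutered and intact dogs in both tissues. Because the tumor medians chose the members, tumor levels are given as a description.

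A few transcripts usually take a large part of the messenger RNA of a tissue. In mammalian tissue they are commonly those of ribosomal proteins, the mitochondrial genome, translation factors and the cytoskeleton, with secretory and matrix transcripts added in the mammary gland. Because FPKM is relative to all mapped fragments, a transcript that takes more of a library leaves less for the others. The deposited table does not pair identifiers with gene names, and the annotation used here gave no match, so the members are named by identifier and their roles and the tissue's defining markers are not given. In bulk tissue, fewer cells of a type and less RNA per cell cannot be told apart.

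The FPKM of a library summed to between 470054 and 1329787 in tumors (median 653851) and between 560397 and 1074139 in normal tissue (median 708428). Read counts were not part of the table and the depth behind a value is unknown. A depth relative to the median library was recovered from the steps between the lowest values of 655 weak identifiers, of which 91% lay within 0.1 of a whole multiple (20% if spread evenly). It ran from 0.75 to 2.13, with medians of 1.00 in tumors and 1.01 in normal tissue.

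The tumor medians of the members ran from 1859 to 20393 FPKM, and 38 of the 50 were below 4000 FPKM. ENSCAFG00000007875 was the most abundant member in both tissues. It had 6572 FPKM in its lowest tumor, a median of 20393 and 80505 in its highest, against 6670, 16980 and 47317 in normal tissue. ENSCAFG00000022726, ENSCAFG00000022728, ENSCAFG00000022729 and ENSCAFG00000022730 followed with tumor medians of 12916, 11820.4, 11446 and 10436 FPKM. In normal tissue the medians of these 4 were 11509, 4711, 13151 and 11390.4 FPKM. Only ENSCAFG00000022728 among them ranked outside the first 4 in normal tissue, at rank 15. At the other end of the list, ENSCAFG00000032057 had a median of 1902 FPKM and ENSCAFG00000014723 of 1859, and the first identifier outside, ENSCAFG00000023247, had 1851.

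The list was shared to a large extent by both tissues. Of the 50 members, 43 were also among the 50 highest identifiers of normal tissue, and the lowest normal rank of a member was 122. In a single tumor, 29 to 44 of the members (median 40) were among that tumor's own 50 highest identifiers, and in a single normal tissue 31 to 43 (median 40). Only 4 members were in the first 50 of every tumor. A member was the highest identifier in 135 tumors and in 44 of 64 normal tissues. ENSCAFG00000007875 was highest in 66 tumors and 21 normal tissues, and ENSCAFG00000022728 in 34 and 7.

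**Figure D1:**
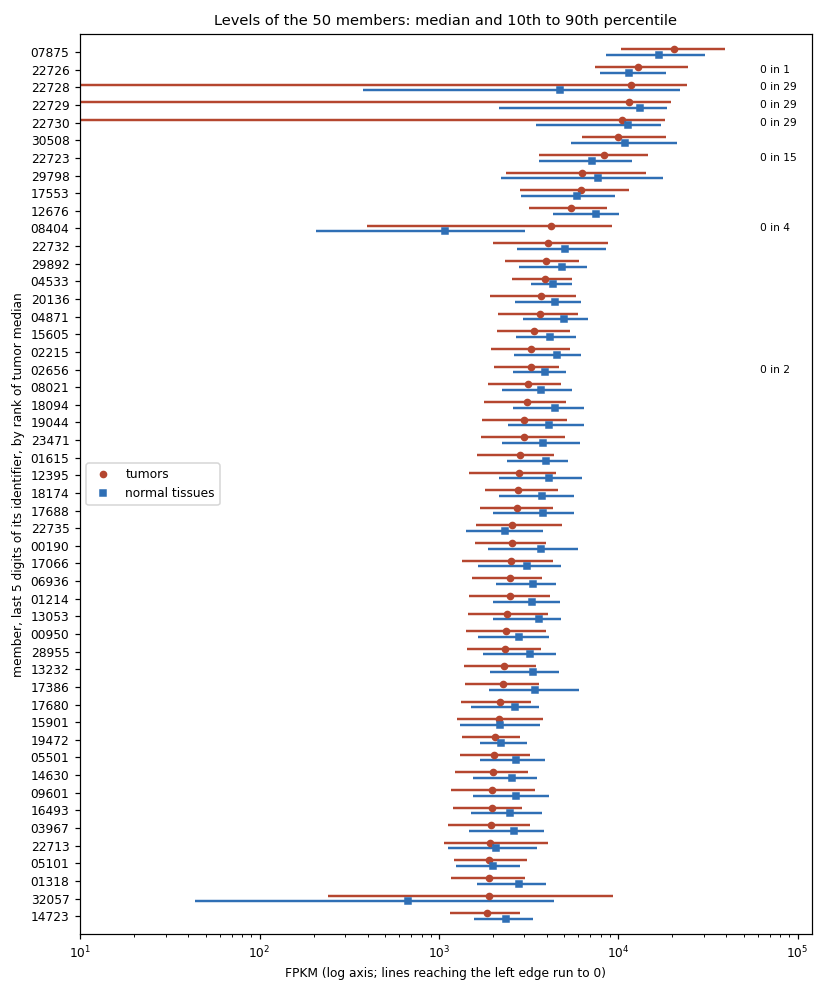
Level of each member in FPKM on a log axis, by rank of the tumor median: points are medians, lines run from the 10th to the 90th percentile over all tumors (red) and 64 normal tissues (blue), and the text gives the number of libraries listing the member at 0. Most lines overlap closely between tissues, while ENSCAFG00000022728, ENSCAFG00000022729 and ENSCAFG00000022730 reach 0 in tumors and ENSCAFG00000008404 and ENSCAFG00000032057 have the longest other lines.

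Together the members took 34.8% ± 4.07 (SD over all tumors) of the FPKM sum of a tumor, with a range of 22.7% to 47.7%. In normal tissue they took 33.8% ± 3.64 (SD, n = 64), with a range of 24.1% to 43.0%. The means differed by 1.00 percentage point, less than the SD of either tissue. Within the 64 dogs the tumor share was on average 1.22 percentage points higher, with an SD of 4.88 between dogs, and it was higher in 36 of them. The differences within surgery years were 0.45 percentage points in 2016, 0.89 in 2017 and 1.30 in 2018. No test is given for the share, because the members were chosen on the tumors. The direction turned when the 50 were instead chosen on normal tissue, with a difference of -1.87 percentage points, and likewise without the 7 members listed at 0 in some library (-0.85) and for the 100 highest identifiers (-0.37). The 10 highest members alone took 17.1% ± 3.37 of a tumor and 14.9% ± 3.68 of a normal tissue.

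Between histology groups the mean share ran from 33.5% ± 4.63 (n = 18) in simple adenomas to 37.0% ± 4.23 (n = 10) in benign mixed tumors, and the ranges of all 7 groups overlapped. Malignant tumors (34.8% ± 3.79, n = 113) and benign tumors (34.8% ± 4.78, n = 44) had the same mean to 3 digits. By the expression clusters of the study's clinical table, the mean share was 33.9% ± 3.39 in NMF1 (n = 92), 38.1% ± 3.98 in NMF2 (n = 35), 35.05% ± 3.67 in NMF3 (n = 18) and 33.4% ± 4.59 in NMF4 (n = 7). The 5 tumors of NMF5 had 25.5%, 28.2%, 30.2%, 31.1% and 31.3%. Basal tumors had 35.7% ± 4.09 (n = 37) and non-basal tumors 34.5% ± 4.04 (n = 120). The clusters and classes were made from these expression values, so their shares are a description.

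**Figure D2:**
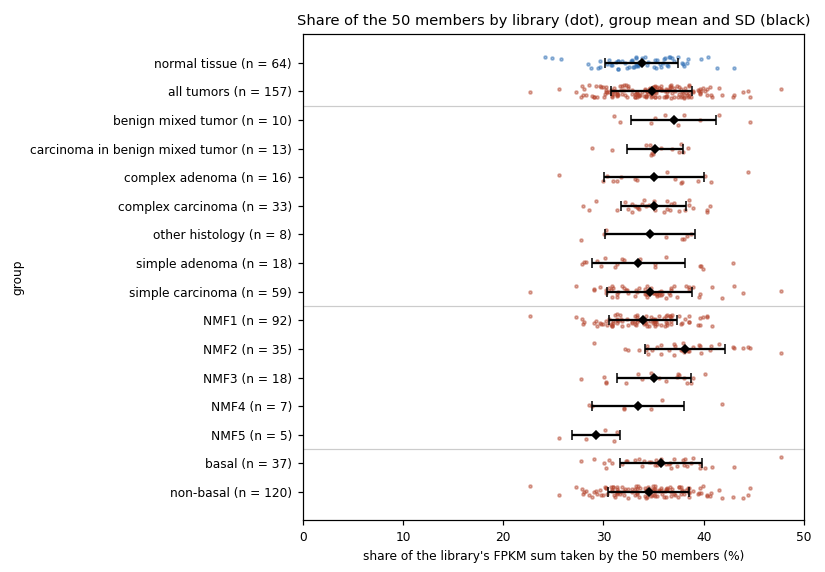
Share of the library's FPKM sum taken by the 50 members, in percent: each dot is 1 library, diamonds are group means and bars are SDs. Group means lie between 29.3% (NMF5) and 38.1% (NMF2), and every group overlaps the 64 normal tissues.

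The SD of log2(FPKM + 1) over tumors was below 0.7 for 36 of the 50 members and for 67.2% of all identifiers tested, and its median over members (0.62) was near that over all 14584 identifiers with a mean of at least 0.5 FPKM (0.58). The steadiest were ENSCAFG00000019472 and ENSCAFG00000004533, each with an SD of 0.48. The most variable were ENSCAFG00000022728 and ENSCAFG00000022729, with SDs of 4.88 and 4.85, which include tumors listed at 0. Apart from members with zeros, ENSCAFG00000032057 ranged from 5.30 to 53836 FPKM in tumors.

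The members also fell into groups that varied together. Over the tumors, Spearman's rho between 2 members had a median of 0.41 over 1225 pairs, and 368 pairs were above 0.8. The closest pair was ENSCAFG00000000950 and ENSCAFG00000014630 (rho = 0.94). Average-linkage clustering placed 35 members in a first group (median rho 0.83) and 4 in a second (ENSCAFG00000022726, ENSCAFG00000022732, ENSCAFG00000022735 and ENSCAFG00000022713, median rho 0.76). The third held ENSCAFG00000022729, ENSCAFG00000022730 and ENSCAFG00000022723, and 8 members were in none. The 64 normal tissues were not used to form the groups, and there the median rho was 0.84 within the first and 0.77 within the second. These correlations describe libraries that share 1 normalization. Together with ENSCAFG00000022728, the last 2 of these groups make up the 8 members whose identifier numbers lie between 22713 and 22735. Among the other members, a single pair (numbers 17680 and 17688) lay within 30 of each other.

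Some of the most abundant members were listed at exactly 0 in part of the libraries. ENSCAFG00000022728, ENSCAFG00000022729 and ENSCAFG00000022730 were at 0 in the same 29 libraries, 23 tumors and 6 normal tissues, and no library had only some of them at 0. In the remaining libraries their lowest values were 213, 830.4 and 2666 FPKM. No library lay between 0 and these values. ENSCAFG00000022723 was at 0 in 15 libraries, 14 of them among the 29. ENSCAFG00000022726, which has a neighbouring identifier number, was above 0 in 28 of the 29. ENSCAFG00000008404 was at 0 in 4 tumors, ENSCAFG00000002656 in 1 tumor and 1 normal tissue, and ENSCAFG00000022726 in 1 tumor. The other 43 members were above 0 in every library. Among all 290 identifiers with a tumor median above 200 FPKM, 14 were at 0 in some library, and only those 3 members and ENSCAFG00000022723 were at 0 in more than 4 libraries.

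A value of 0 in a table without counts can be a failed estimate, so such a member is described here only as listed at 0. The zeros occurred over the whole range of depth and were most frequent in the deepest libraries (12 of 55, against 17 of the other 166). With the libraries split into 4 bins of relative depth, the 3 members were at 0 in 5 of the 56 shallowest, in 6 of 55 and 6 of 55 of the next bins, and in 12 of the 55 deepest. Of the 64 dogs with both tissues, 1 had the 3 members at 0 in both, 7 in the tumor only and 5 in the normal tissue only.

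**Figure D3:**
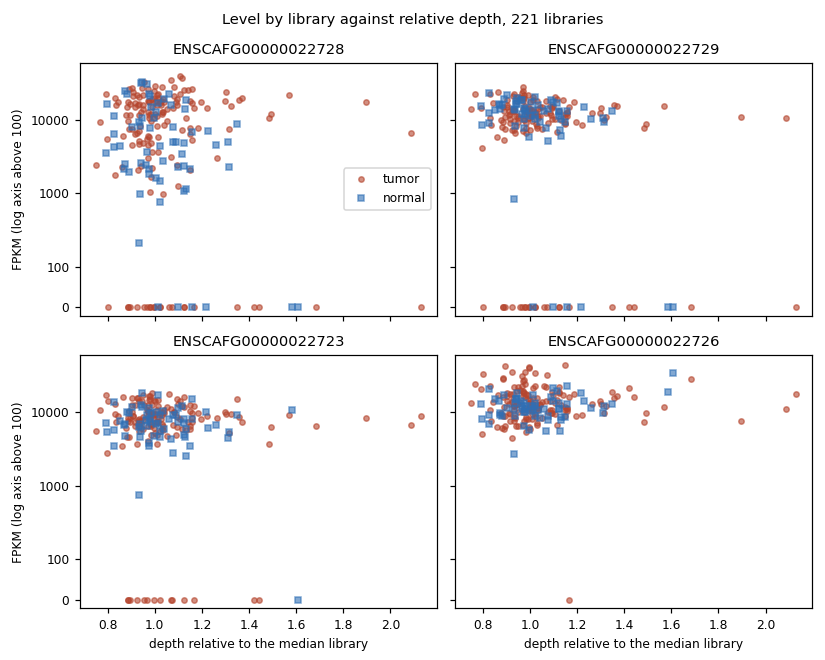
Level of 4 members in 221 libraries (tumors, red circles, and 64 normal tissues, blue squares) in FPKM, on a log axis above 100, against depth relative to the median library. ENSCAFG00000022728 and ENSCAFG00000022729 are at 0 in 29 libraries over the whole range of depth, 12 of them among the 55 deepest. ENSCAFG00000022723 is at 0 in 15 libraries and ENSCAFG00000022726 in 1.

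The comparison of tumor with normal tissue asked which abundant transcripts differ between a CMT and the gland around it. Differences were tested with limma on log2(FPKM + 1) and adjusted by Benjamini-Hochberg over 14713 identifiers, and a member was called where the adjusted p was below 0.05 and the groups differed by 1 or more on the log2 scale. Of the 50 members, 2 were called higher in tumors (1.44% of all identifiers tested) and 0 lower (3.90%), with 33 lower at an unadjusted p under 0.05 (23.0% of all). The members were chosen on their tumor medians, which favours members that are high in tumors, so the counts of higher and lower members are a description. Without the limit on size, 4 were higher (34.2% of all) and 33 lower (21.6%). The median log2 difference was -0.34 over the members and 0.067 over all identifiers. With each library divided by its FPKM sum, these medians were -0.21 and 0.18.

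ENSCAFG00000008404 had values of 0 to 15690.4 FPKM in tumors (median 4202) and 103 to 8909 in normal tissue (median 1086). The ranges overlapped, and the tumor was higher in 50 of 64 dogs. ENSCAFG00000008404 had a log2 difference of 1.45 (SE 0.33), given without p because these tumors also chose it. It was also a member when the 50 were chosen on tumors of dogs without normal tissue, and in the other 64 dogs its difference within dogs was 1.71 (SE 0.28, limma adjusted p = 8.37e-07). ENSCAFG00000032057 ran from 5.30 to 53836 FPKM in tumors (median 1902) and from 14.8 to 17420 in normal tissue (median 669). Here too the ranges overlapped, and the tumor was higher in 46 of 64 dogs. Its log2 difference was 1.54 (SE 0.34). It was no member when the 50 were chosen on the tumors of the other dogs, so this difference draws on the values that chose it and no p is given. Within surgery years the log2 differences were 0.78, 1.61 and 1.62 for ENSCAFG00000008404 and 1.83, 1.40 and 2.53 for ENSCAFG00000032057 (2016, 2017 and 2018). The difference of ENSCAFG00000008404 was smallest in 2016. The years held 42 tumors and 13 normal tissues in 2016, 98 and 40 in 2017 and 17 and 11 in 2018. ENSCAFG00000008404 and ENSCAFG00000032057 are the members with the lowest normal ranks, 91 and 122.

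All 33 members that were lower belonged to the first co-varying group, whose 35 members had differences of -0.61 to -0.080. The largest was that of ENSCAFG00000017386, with 761 to 15289 FPKM in tumors (median 2266) and 1445 to 9994 in normal tissue (median 3425). It was lower in the tumor of 51 of 64 dogs, and its log2 difference was -0.61 (SE 0.10, limma adjusted p = 1.11e-08). In the second group 1 of 4 members was higher, and the third had none past the threshold.

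For ENSCAFG00000022728 the result depended on the libraries at 0. As deposited, its tumor median was 11820.4 FPKM against 4711 in normal tissue, yet its log2 difference was 0.18 (SE 0.68). With values of 0 set to missing, a choice made after the data were seen, the difference was 0.98 (SE 0.20), just under the limit on size. These tumors also chose the member, so no p is given. Among dogs, with the values as deposited, the tumor was higher in 37 and lower in 26. With values of 0 set to missing, ENSCAFG00000022723 turned from -0.64 to 0.33 (SE 0.094), and ENSCAFG00000022729 from -0.69 to 0.025 (SE 0.091), likewise without p.

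**Figure D4:**
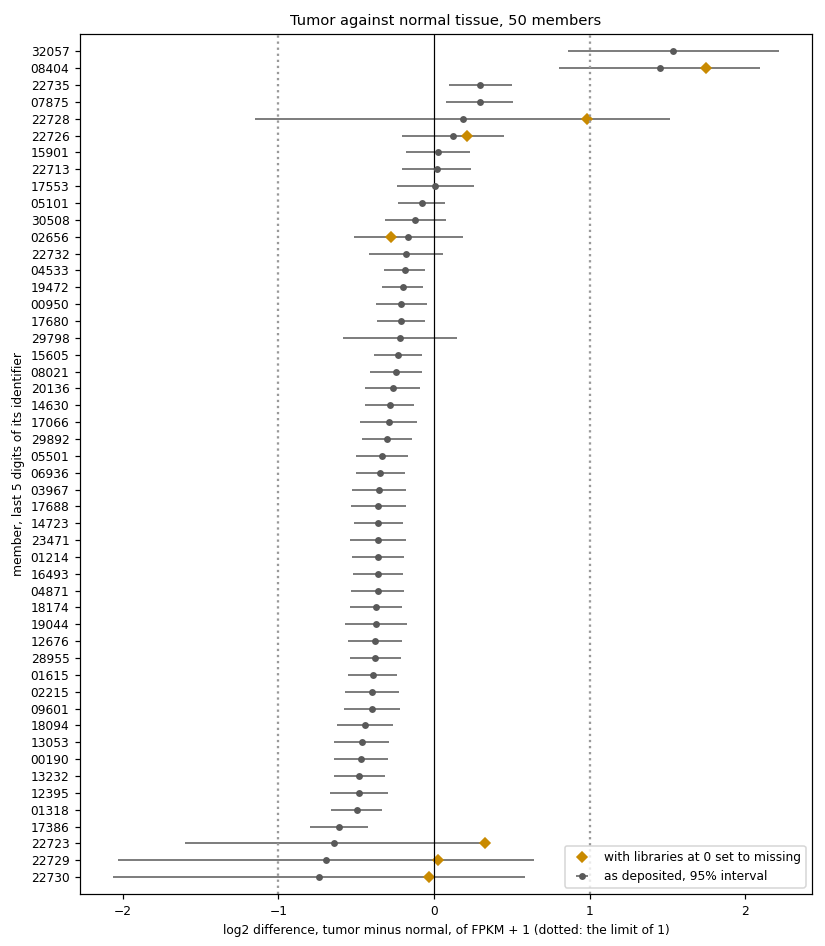
Log2 difference of FPKM + 1, tumor minus normal tissue, for each member (grey, with its 95% interval) and, for the 7 members with zeros, the difference with those libraries set to missing (gold). Only ENSCAFG00000032057 and ENSCAFG00000008404 pass the limit of 1, most others lie slightly below 0, and the gold points of ENSCAFG00000022728, ENSCAFG00000022723, ENSCAFG00000022729 and ENSCAFG00000022730 stand above their deposited values.

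The tumor-normal difference itself was compared between 48 dogs with malignant and 16 with benign tumors. No member was called by limma (0.00% of all identifiers in either direction), and 0 had an unadjusted p under 0.05 (4.28% of all higher, 0.789% lower).

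Across the 7 histology groups, 2 members were called by limma's moderated F test (9.64% of all identifiers tested), and the same 2 by adjusted p alone (16.9% of all). ENSCAFG00000007875 had its highest mean in tumors of other histology, where it ran from 16066 to 80505 FPKM (median 42697). It was lowest in simple adenomas (median 14367 FPKM), and simple carcinomas lay between (median 22512 FPKM). The log2 means differed by up to 1.39 (limma adjusted p = 0.0149), a call that was lost without the filter on low values. ENSCAFG00000002656 was lowest in benign mixed tumors, with a range of log2 means of 1.62 (limma adjusted p = 0.0172). That result turned on 1 benign mixed tumor listed at 0: with zeros set to missing the range was 0.75 (limma adjusted p = 0.063), and with the clinical table's diagnoses it was 0.94 and not called.

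Against 59 simple carcinomas, the 8 tumors of other histology had 0 members called by limma in either direction (2.80% of all identifiers higher, 3.19% lower). At an unadjusted p under 0.05, 1 was higher and 12 lower (10.3% and 13.3% of all). By adjusted p alone 1 member was higher (5.40% of all) and 2 lower (5.29%). ENSCAFG00000007875 was higher, with a log2 difference of 0.83 (SE 0.27, adjusted p = 0.0362). ENSCAFG00000017553 was lower, with medians of 3382 and 6853 FPKM and a log2 difference of -0.99 (SE 0.29, adjusted p = 0.0182). ENSCAFG00000008021 was also lower, with a log2 difference of -0.78 (SE 0.23, adjusted p = 0.0166). The first co-varying group lay below simple carcinomas in 34 of its 35 members, with a median log2 difference of -0.41, where all members had -0.37 and all identifiers -0.069.

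Malignant tumors were compared with benign ones, and complex with simple carcinomas. In neither comparison was a member called by limma. For malignancy, 0 members were called in either direction (0.0137% of all identifiers higher, 0.130% lower), and 0 by adjusted p alone (0.357% and 0.775%). At an unadjusted p under 0.05, 1 member was higher and 1 lower (8.08% and 7.36% of all). For complex against simple carcinoma there were 0 and 0 calls (0.524% and 0.0207% of all), 0 and 0 by adjusted p alone (3.48% and 0.227%), and 0 and 0 at an unadjusted p under 0.05 (15.5% and 3.69%). The first co-varying group had median log2 differences of -0.018 and -0.039 in these comparisons.

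Grade 3 tumors (n = 28) against grade 1 tumors (n = 62) gave 0 calls by limma (0.828% of all identifiers higher, 1.59% lower). At an unadjusted p under 0.05, 1 member was higher and 3 lower (13.2% and 18.3% of all). By adjusted p alone 1 member was higher (8.15% of all) and 1 lower (11.2%). ENSCAFG00000007875 was higher, with medians of 28904 and 21036 FPKM and a log2 difference of 0.54 (SE 0.15, adjusted p = 0.00548). Both grades pool histologies, and its highest grade 3 value (80505 FPKM) is also its highest in tumors of other histology. The paper graded osteosarcoma and fibrosarcoma by separate systems, and the part of histology in this difference was not tested. ENSCAFG00000004533, one of the steadiest members, was lower, with medians of 3537 and 4131 FPKM (log2 difference -0.28, SE 0.10, limma adjusted p = 0.0483).

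Among malignant tumors, 16 with lymphatic invasion and 97 without also gave 0 calls by limma (0.762% of all identifiers higher, 0.618% lower). At an unadjusted p under 0.05, 5 members were higher and 0 lower (11.3% and 12.3% of all). By adjusted p alone 1 member was higher (5.04% of all) and 0 lower (4.14%). ENSCAFG00000022713 was higher, with medians of 2613 and 1672 FPKM (log2 difference 0.61, SE 0.21, limma adjusted p = 0.0428). ENSCAFG00000032057 had medians of 4020.3 and 1633 FPKM and a log2 difference of 1.70 (SE 0.60, limma adjusted p = 0.0564), which was called with surgery year as a covariate (1.72, limma adjusted p = 0.0427). The 24 tumors negative for the estrogen receptor (ER) and those positive for it gave 0 calls by limma (0.0549% of all identifiers higher, 0.165% lower). At an unadjusted p under 0.05, 1 member was higher and 0 lower (6.04% and 12.6% of all). By adjusted p alone there were also 0 and 0 (0.590% and 1.48%).

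Tumors of 49 neutered dogs and those of intact dogs gave 0 calls by limma among the members and 0.00% among all identifiers. At an unadjusted p under 0.05, 1 member was higher and 3 lower (3.31% and 4.82% of all), and those 3 were ENSCAFG00000022728, ENSCAFG00000022729 and ENSCAFG00000022730. Their log2 differences were -3.45 (SE 0.80), -3.12 (SE 0.80) and -3.09 (SE 0.79), with limma adjusted p of 0.32, 0.36 and 0.36. The medians of ENSCAFG00000022728 were 6053 FPKM in tumors of neutered dogs and 15623 in those of intact dogs. With zeros set to missing its log2 difference was -0.47 and that of ENSCAFG00000022729 0.0043.

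The listing at 0 itself went with neuter status. The 3 members were at 0 in 15 of 49 tumors of neutered dogs (30.6%), and in intact dogs they were at 0 in 8 tumors and above 0 in 97 (7.62% at 0). The two-sided p was 0.000436 by Fisher's exact test, with an adjusted p of 0.00392 over 9 such comparisons, all chosen after the values were seen. The share was higher in neutered dogs in each surgery year, with 4 of 12 against 3 of 30 in 2016, 9 of 32 against 2 of 63 in 2017 and 2 of 5 against 3 of 12 in 2018. It was also higher among benign tumors (3 of 8 against 1 of 36) and malignant tumors (12 of 41 against 7 of 69). By cluster the counts were 10 of 16 against 3 of 19 in NMF2, 3 of 26 against 3 of 64 in NMF1, 1 of 4 against 1 of 14 in NMF3, 1 of 2 against 1 of 4 in NMF4 and 0 of 1 against 0 of 4 in NMF5. Of the 15 zeros in neutered dogs, 10 were thus in NMF2 tumors. By histology they were 8 of 26 against 4 of 30 in simple carcinomas, 2 of 7 against 2 of 26 in complex carcinomas, 2 of 6 against 1 of 7 in carcinomas in benign mixed tumors, 2 of 2 against 0 of 8 in benign mixed tumors and 1 of 4 against 0 of 14 in simple adenomas. Complex adenomas had the opposite order (0 of 2 against 1 of 14), and tumors of other histology had none (0 of 2 and 0 of 6). Normal tissue had 1 of 22 in neutered and 5 of 42 in intact dogs (Fisher's exact test, adjusted p = 0.74 over the same 9). Median relative depth was 1.00 in both groups of tumors, and median age was 13 years in neutered and 12 years in intact dogs. NMF2 tumors made up 32.7% of tumors of neutered and 18.1% of those of intact dogs. The part of age and cluster in the difference was not tested. Tissue, malignancy, grade, histology, invasion and ER status had adjusted p of 0.70 to 0.76 in these tests.

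**Figure D5:**
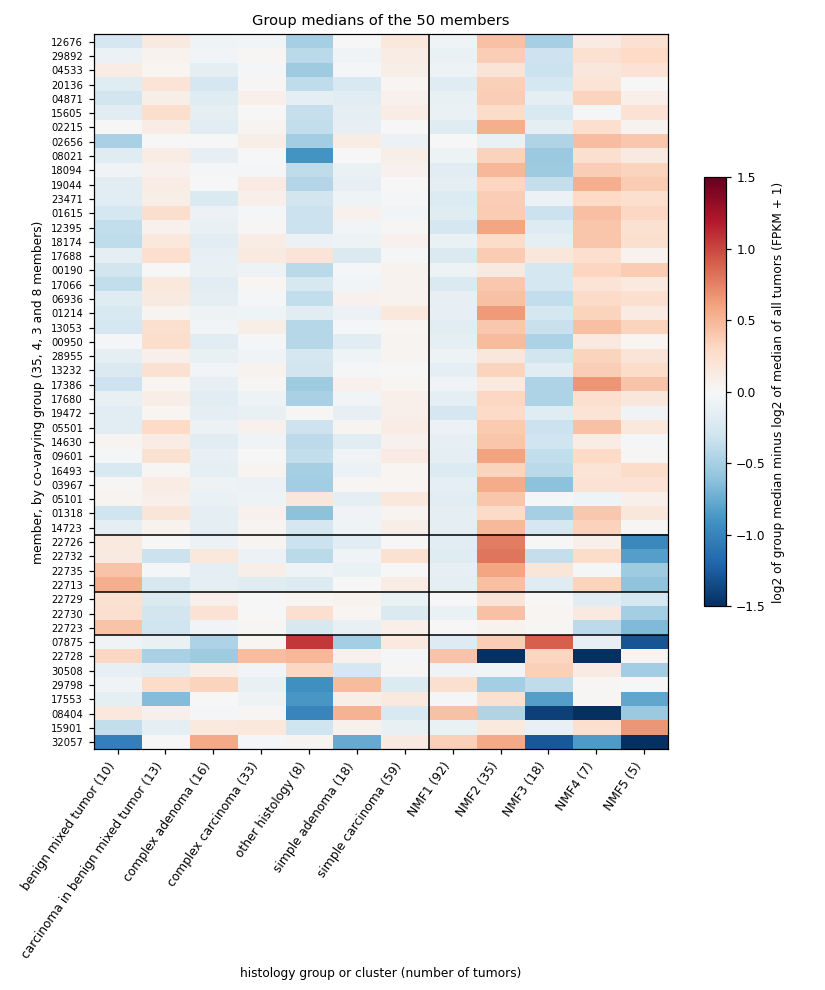
Log2 of the group median minus log2 of the median over all tumors (FPKM + 1), for 50 members (rows, with lines between co-varying groups of 35, 4, 3 and 8) in 7 histology groups and 5 expression clusters (columns, with the number of tumors). Histology columns are mostly pale outside other histology, and NMF2 is above the median of all tumors in nearly all of the first 35 rows. By group means, NMF4 and NMF5 were also above all tumors in 34 of these rows each.

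The clusters were made from these expression values, so differences between them are given as a description without test. Relative to the mean of all tumors, the first co-varying group had 34 of 35 members above in each of NMF2, NMF4 and NMF5. Its median log2 differences there were 0.48, 0.34 (n = 7) and 0.27 (n = 5), and in NMF1 and NMF3 the median was below that of all tumors. Against NMF1, the first co-varying group was higher in NMF2 tumors in 34 of 35 members, with a median log2 difference of 0.62, and all 4 members of the second group were higher (median 0.67). This comparison was added after the values were seen. Over all identifiers the median was -0.23. With each library divided by its FPKM sum, the medians were 0.38 over the members and -0.42 over all identifiers. Past a log2 difference of 1, 1 member was higher (0.263% of all identifiers) and 4 lower (5.70%). The 4 were ENSCAFG00000022728 (-4.82), ENSCAFG00000022729 (-3.81), ENSCAFG00000022730 (-3.64) and ENSCAFG00000022723 (-2.75).

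These 4 large differences rested on tumors listed at 0. The first 3 of them were at 0 in 13 of 35 NMF2 tumors, 6 of 92 NMF1 tumors, 2 of 18 NMF3 tumors, 2 of 7 NMF4 tumors and 0 of 5 NMF5 tumors. With zeros set to missing, the differences between NMF2 and NMF1 were -0.99, 0.53, 0.71 and 0.26, so that 3 of the 4 changed sign. Only ENSCAFG00000022728 stayed lower in NMF2, with medians above 0 of 5750 FPKM and 16158 FPKM in NMF1.

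In NMF3 tumors against NMF1 and NMF2 together, 2 members were lower past a log2 difference of 1 (4.33% of all identifiers) and 0 higher (3.28%). ENSCAFG00000008404 had a log2 difference of -1.40, with a median of 1614 FPKM in NMF3 and 4899 in NMF1 and NMF2 together (5711 in NMF1 and 3074 in NMF2). ENSCAFG00000032057 had a log2 difference of -1.63, with medians of 789.9 and 2451 FPKM. These are the same members that were called higher in tumors than in normal tissue. The first co-varying group was lower in 34 of 35 members (median -0.37), where all members had -0.35 and all identifiers -0.074. Relative to all tumors, the median of this group was -0.36 in NMF3, -0.15 in NMF1 and 0.48 in NMF2. The pooled reference thus includes the cluster where this group was highest. ENSCAFG00000007875 had its highest cluster median in NMF3 (37988 FPKM) and its lowest in NMF5 (8309 FPKM).

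Basal tumors differed from non-basal tumors past a log2 difference of 1 in 1 member higher (1.25% of all identifiers) and 1 lower (2.96%). ENSCAFG00000008404 was lower (log2 difference -1.58, medians of 1561 and 5043 FPKM). ENSCAFG00000022723 was higher as deposited (1.04), where it was at 0 in 1 of 37 basal and 13 of 120 non-basal tumors, and its difference was -0.028 with zeros set to missing.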

How the data were processed

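Polyadenylated RNA of canine mammary tumors and 64 adjacent normal tissues was sequenced. Per the submitters' processing notes and the study's methods, the authors aligned reads with TopHat2 2.0.9 to CanFam3.1 and estimated FPKM with Cufflinks 2.1.1, and the deposited values are FPKM per identifier, without counts. Tumor CMT-351 has no line in the study's clinical table and entered only an alternative. Clusters (NMF1 to NMF5) and basal classes came from that table, other groups from the labels.

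Values were tested as log2(FPKM + 1) with limma 3.58.1 (R 4.3.3, eBayes with trend), two-sided, on identifiers with a mean of at least 0.5 FPKM, with Benjamini-Hochberg adjustment over all of them. The pseudocount of 1 lowers the differences of weak identifiers. Spread is between dogs. Zero listings were compared with Fisher's exact test (scipy 1.17.1). The limma comparison of 2 groups was tested on simulated data. The members and lists were chosen with earlier results of these data known. Named members were the 5 highest, the 2 most and least variable, those at the edge of the list, the closest pair and up to 2 called per direction, and members with zeros or past adjusted p alone were named after their values were seen. Both tissues of a dog come from the same animal and so are paired. Deviations of both tissues from their tissue means correlated with a mean r of 0.20 over 64 dogs (above 0.1 in 45). With the dog as a block, 2 members were called higher in tumors (1.58% of all identifiers tested) and 0 lower (3.53%). By adjusted p alone, 4 were higher (34.6% of all) and 32 lower (20.8%).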

Additional observations from a re-analysis of the deposited data

Results flagged for a closer look

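A tumor was set against the others of its group in groups of 4 to 10 tumors, for the share of the FPKM sum, the share of the members never at 0, the FPKM sum and the relative depth. Of 16 such checks, 4 found a tumor far from the others, at a limit set for about 1 in 20 in a single check. The benign mixed tumor CMT-257 stood apart in 3 of them, so the checks are not independent and their number is a description. Its 43 members never at 0 took 41.2% of the FPKM sum, against 29.6% in the next of the 10 benign mixed tumors and the highest value of any tumor here. Its FPKM sum was 1235534, against 692349 in the next, and its relative depth was 1.68, against 1.16. Among all tumors, 1 had a higher FPKM sum and 3 a greater relative depth than CMT-257. The tumor CMT-606 had the highest relative depth of the 7 NMF4 tumors, at 2.09 against 1.13 in the next.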

How the results depend on the processing

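Of 211 recomputed counts, shares and values of called members, 7 turned direction, 6 fell below their threshold, 4 rose past it and 7 counts moved by over 1.5 times, and the rest kept both. Of members called in tumors, 1 (ENSCAFG00000008404) was left when members were chosen over tumors of dogs without normal tissue and tested in the other 64 with the dog as a block (replicate block), and the block changed no other call. Across histology groups, 1 was left without the filter on low values (ENSCAFG00000002656), and 1 with diagnoses from the clinical table and 1 with zeros set to missing (both ENSCAFG00000007875). For lymphatic invasion, 1 was called with surgery year as a covariate (ENSCAFG00000032057). With zeros set to missing, 1 member was left past the limit for basal tumors and 1 for NMF2 against NMF1. ENSCAFG00000022723 then turned to -0.028 (basal) and 0.26 (NMF2), ENSCAFG00000022729 to 0.53 and ENSCAFG00000022730 to 0.71. The difference in share between tumor and normal tissue was 2.11 percentage points for the 10 highest members, -0.37 for the 100 highest identifiers, 1.22 with the left-out identifiers also taken from the sum, -0.85 without the 7 members with zeros, 1.22 within dogs (replicate block) and -1.87 for members chosen on normal tissue. For histology, the ratio of variance between to within groups (F) of the share was 0.86, and 2.23 for the 10 highest members, given as a description. Leaving out each NMF5 tumor moved its mean share between 28.7% and 30.2%. The causes were not tested, except that zeros set to missing remove the tumors at 0. No reads per value were given, so depth limits were not computed.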

Other observations

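Tumor CMT-351, which was placed in no group, had a member share of 39.1% of an FPKM sum of 783525. Only 21 of the grouped tumors had a higher share. It listed 0 members at 0, and 41 of the members were among its own 50 highest identifiers.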
